A study of Mus musculus with 6 samples.

Results

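The semaphorins, plexins, neuropilins, ephrins, Eph receptors, Slits, Robos, netrins and netrin receptors are the classical guidance genes of the developing nervous system. They were followed here in neural progenitor cells (NPCs) with and without *Armc5*. The members were chosen by their symbols, with earlier results of these data known. Of 53060 genes or merged loci, 70 genes carried such a symbol: 20 semaphorins, 2 neuropilins, 9 plexins, 8 ephrins, 14 Eph receptors, 3 Slits, 4 Robos, 4 netrins and 6 netrin receptors. *Epha5* was spread over 2 of the 71 loci with a member's name, and these were summed. Of the 70 genes, 65 had enough counts to be tested, against 19073 of all genes. *Epha1*, *Epha6*, *Epha8*, *Robo4* and *Sema3g* did not pass this filter, with at most 32 counts in any library.

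RNA-seq was done on NPCs, called neural stem cells in the labels, from the ganglionic eminences of e13.5 mouse fetuses, grown as neurospheres at 20 ng/ml of epidermal growth factor and taken at passage 2. The KO NPCs came from fetuses without a functional *Armc5* on either allele and the WT NPCs from fetuses with the intact gene, with 3 libraries each. The labels give 129 sv X CD1 as the strain, while the methods of the study name a CD1 and C57BL/6 hybrid background for its mice. ARMC5 is the substrate-recognition part of a ubiquitin ligase for RNA polymerase II (Pol II), and the study asked whether its loss changes the transcriptome. Libraries of both genotypes carry replicate numbers 1, 2 and 3, and libraries with the same number deviated from their group means together, so they are set side by side below.

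Guidance ligands and receptors steer growing axons and migrating cells. Secreted class 3 semaphorins act through a neuropilin and a plexin, and most membrane-bound semaphorins bind plexins directly. Ephrins on one cell bind Eph receptor tyrosine kinases on its neighbour, and both cells can signal. Slits repel through Robo receptors, and netrins attract through DCC and neogenin or repel through the UNC5 receptors. In the ganglionic eminences these families are known for sorting migrating interneurons and for boundaries between progenitor zones, and several of them also act in glial precursors and in blood vessels.

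The libraries held 52995791 to 85170379 counts at loci that name a gene, the lowest in KO NPC 3, which also had the largest share of counts in unnamed loci (4.89%, against 1.31% to 1.72% in the other 5). *Armc5* had 43 to 119 counts in the KO and 1797 to 2114 in the WT libraries, so that each library matched its label. Of the progenitor genes, the locus of *Sox2*, which is merged with *Sox2ot* and other genes, was at 536 to 812 CPM, that is, counts scaled to an equal library size, with edgeR's TMM factors. *Dlx1* and *Dlx2*, homeobox genes of the ganglionic eminences, varied widely, at 0.0475 to 35.0 and 0.222 to 70.2 CPM. KO NPC 3 stood apart: *Nes*, which encodes the progenitor filament NESTIN, was at 75.9 CPM there and at 356 to 484 CPM in the other libraries, while *Aqp4*, an astrocyte water channel, was at 1041 CPM there and at 55.7 to 171 CPM elsewhere. Of 14 progenitor markers, KO NPC 3 was the highest library in 5 and the lowest in 5. *Sox2*, *Dlx1* and *Dlx2* were among those highest there, and *Nes* among those lowest.

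The guidance genes with the widest range over the 6 libraries were *Slit3*, *Epha2*, *Sema4a* and *Sema3d*, and *Slit2* was the single member at an unadjusted p under 0.05 between the genotypes. Their promoter windows from RefSeq (GRCm38.p6, from 250 bases before to 50 after the annotated start, in the direction of the gene) are shown because the levels of these 5 genes carry the results below. CG dinucleotides (CpG) are in capitals.
*Slit2*, chr5:47982905-47983204, plus strand: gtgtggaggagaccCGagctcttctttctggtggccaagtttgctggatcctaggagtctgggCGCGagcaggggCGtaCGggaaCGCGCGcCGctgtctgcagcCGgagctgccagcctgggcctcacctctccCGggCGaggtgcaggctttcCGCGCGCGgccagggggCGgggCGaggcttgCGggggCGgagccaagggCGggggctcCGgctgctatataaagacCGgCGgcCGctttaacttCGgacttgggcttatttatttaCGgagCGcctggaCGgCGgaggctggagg
*Slit3*, chr11:35121206-35121505, plus strand: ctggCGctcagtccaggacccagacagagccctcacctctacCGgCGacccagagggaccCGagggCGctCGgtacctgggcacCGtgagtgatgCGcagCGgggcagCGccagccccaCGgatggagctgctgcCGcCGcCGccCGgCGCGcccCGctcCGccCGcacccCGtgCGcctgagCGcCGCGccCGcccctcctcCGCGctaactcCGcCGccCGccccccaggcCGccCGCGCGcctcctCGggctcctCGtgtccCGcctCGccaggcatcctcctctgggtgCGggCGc
*Sema4a*, chr3:88461133-88461432, minus strand: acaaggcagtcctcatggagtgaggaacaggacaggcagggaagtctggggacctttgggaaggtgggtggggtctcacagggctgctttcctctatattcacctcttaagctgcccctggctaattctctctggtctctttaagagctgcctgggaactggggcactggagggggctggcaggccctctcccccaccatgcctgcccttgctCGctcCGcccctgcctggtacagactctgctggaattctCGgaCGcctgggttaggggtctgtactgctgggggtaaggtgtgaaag
*Sema3d*, chr5:12382916-12383215, plus strand: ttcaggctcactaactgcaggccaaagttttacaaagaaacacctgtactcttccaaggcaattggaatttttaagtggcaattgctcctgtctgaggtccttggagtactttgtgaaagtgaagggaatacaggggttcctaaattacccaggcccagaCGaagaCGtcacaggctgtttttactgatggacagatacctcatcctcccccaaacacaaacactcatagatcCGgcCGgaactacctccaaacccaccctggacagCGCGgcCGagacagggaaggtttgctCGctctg
*Epha2*, chr4:141300971-141301270, plus strand: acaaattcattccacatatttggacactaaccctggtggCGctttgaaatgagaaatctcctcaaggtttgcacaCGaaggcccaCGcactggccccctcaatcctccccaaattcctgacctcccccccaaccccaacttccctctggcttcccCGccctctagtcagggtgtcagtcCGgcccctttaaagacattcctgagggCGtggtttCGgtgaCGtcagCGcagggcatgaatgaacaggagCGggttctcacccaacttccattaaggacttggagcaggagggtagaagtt
The 2 Slit windows were the richest in CpG of the 5, with 41 in *Slit3* and 30 in *Slit2*, and held 78.3% and 68.0% G and C. *Epha2* had 10, *Sema3d* had 8 and *Sema4a* had 4. The *Sema4a* window shown is 1 of 4 of that gene, while the other genes shown have 1 each. RefSeq windows were found for 60 of the 70 members, 76 windows in all. Their median was 19.5 CpG per window against 7 over the 32544 windows of all genes, which include non-coding genes. The median share of G and C was 64.3% in the member windows and 53.0% in all windows. The part of this base composition in the motif shares below was not tested. An E-box (CANNTG, the letters bound by proneural bHLH factors, the same on both strands) was in 38 of the 76 member windows and in 72.3% of all windows. Of the 5 windows shown, *Sema3d* alone held E-boxes, 3 of them. The letters TATAAA, on either strand, were in 2.63% of the member windows and 13.6% of all windows, and of the 5 shown were in *Slit2* only. A SOX motif (ACAAT, either strand) was in 18.4% of the member windows and 30.8% of all windows, and in none of the 5.

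Mean levels in the WT NPCs, compared per length as CPM per kb of exon, ran from 0.0654 (*Sema3e*) to 53.8 (*Plxnb2*) among the 65 tested members. *Plxnb2* led with 48.5 to 59.0 in the 3 WT libraries. It encodes plexin B2, a receptor for class 4 semaphorins that is known for its role in neural tube closure and in progenitor proliferation. *Sema6d*, a membrane-bound ligand of plexin A1, was at 29.6 to 40.9 CPM per kb. *Ntn1*, the secreted attractant of commissural axons, was at 19.5 to 32.5, *Sema6a*, a ligand of plexins A2 and A4, at 21.3 to 26.7, and *Neo1*, the netrin receptor neogenin, at 22.7 to 24.2. The range of *Ntn1* overlapped those of *Sema6d*, *Sema6a* and *Neo1*, and *Plxnb1*, below, overlapped the last 3, so that the order after *Plxnb2* is not fixed by these libraries.

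Each family had a few members at high and others at low levels. Among the plexins, *Plxnb1*, a receptor for *Sema4d*, was at 15.6 to 29.1 CPM per kb, and *Plxna4* had the lowest range of its family, 1.07 to 1.81. *Plxna1* was at 15.6 to 17.5, but its locus is merged with *Chchd6* and includes the reads of that gene. Both neuropilins were near the level of *Plxna4* and below the other class A plexins, *Nrp1* at 1.05 to 1.82 (a locus merged with *Mir1903*) and *Nrp2* at 1.08 to 1.28. The ephrins were led by *Efnb1* at 8.25 to 16.1 and *Efna2* at 9.65 to 15.2 CPM per kb, and *Efna1* was the lowest at 0.416 to 0.542.

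*Ephb3*, at 8.79 to 11.2 CPM per kb, was the highest Eph receptor per kb in the WT NPCs, and *Epha10*, a receptor without kinase activity, the lowest tested one at 0.0748 to 0.13. Before division by length, *Epha5* had a higher WT mean than *Ephb3*, 100.7 against 73.2 CPM. The exonic length of its locus was 17711 bases, against 7031 for *Ephb3*. *Slit1* was at 3.40 to 6.996, *Slit2* at 0.392 to 0.64 and *Slit3* at 0.0296 to 0.141, so that the WT ranges of the 3 Slits did not overlap. *Robo1* (3.78 to 6.73) and *Robo2* (2.48 to 3.42), the main Slit receptors, were far above *Robo3* (0.0286 to 0.153), known from commissural neurons. *Robo4*, a receptor of endothelial cells, had 15 counts or fewer in each library. *Dcc*, the receptor for attraction by netrin, was at 4.08 to 7.94, *Unc5b* at 1.33 to 2.59 and *Unc5d* at 0.0808 to 0.396 CPM per kb.

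**Figure D1:**
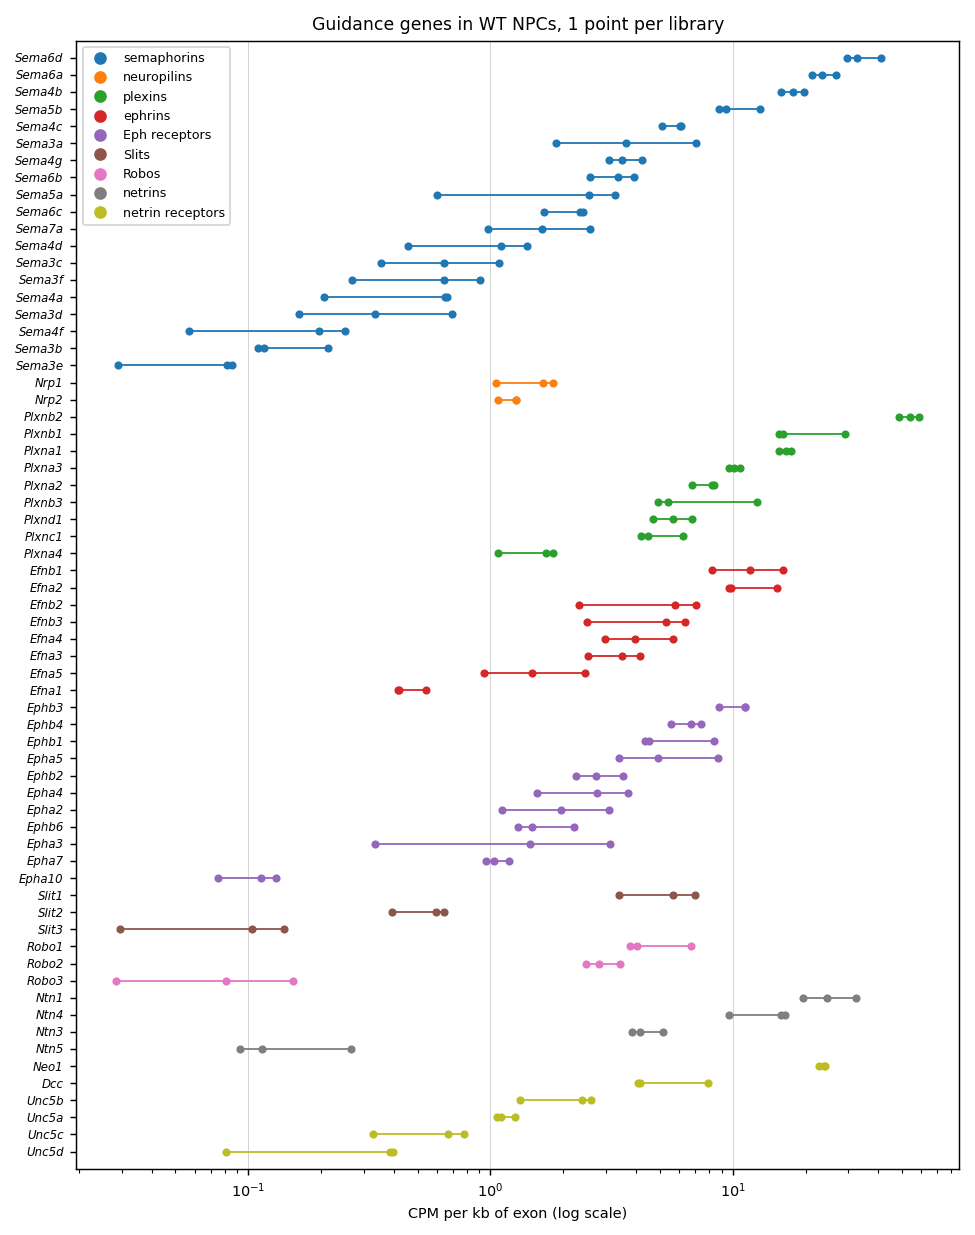
Level of the 65 tested guidance genes in the 3 WT NPC libraries as CPM per kb of exon on a log scale, 1 point per library with a line from the lowest to the highest, grouped by family. *Plxnb2* (48.5 to 59.0) and *Sema6d* (29.6 to 40.9) lie farthest to the right, and lines are long for *Epha3* and *Sema5a*, which differed between WT libraries.

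The comparison of the KO with the WT NPCs called none of the guidance genes. With edgeR's quasi-likelihood test none of the 65 tested members (0) had an adjusted p under 0.05, as had 0% of the 19073 genes tested. The lowest adjusted p of a member was 0.983. At an unadjusted p under 0.05 there was 1 member, *Slit2*, or 1.54%, which is close to the 1.61% of all genes. The log2 fold change, KO against WT, was above 0 in 42 members and below 0 in 23. The median was 0.14, against -0.01 over all genes tested. Without KO NPC 3 the median was -0.01 over 66 members. By edgeR's likelihood ratio test 0 members had an adjusted p under 0.05, against 0.0891% of all genes, and 2 an unadjusted one, against 2.88%. By DESeq2 these were again 0, against 0.184%, and 2, against 3.03%.

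*Slit2*, a secreted repellent of the Robo receptors (chr5:47983138-48307733, plus strand), was at 20.8, 19.6 and 26.6 CPM in KO NPC 1, 2 and 3 and at 15.2, 16.3 and 9.97 CPM in WT NPC 1, 2 and 3. Each KO library was above each WT library, and the gap was widest between the libraries numbered 3. The means were 22.3 ± 3.75 CPM (SD, n = 3) in the KO and 13.8 ± 3.38 CPM (SD, n = 3) in the WT. The log2 fold change was 0.69 (standard error, SE, 0.25, unadjusted p = 0.0326, adjusted p = 0.983 by edgeR's quasi-likelihood test). It was 0.54 without KO NPC 3 and 0.35 without both libraries numbered 3. With the replicate number as a block it was 0.71, at an unadjusted p of 0.0739 by edgeR's quasi-likelihood test. The two-sided exact permutation test gave p = 0.1, the smallest that 3 libraries against 3 allow.

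*Slit2* was also the single member of which all KO libraries were higher than all WT libraries, a pattern of 2.74% of all tested genes. None of the 65 members had all KO libraries lower than all WT libraries, against 3.28% of all genes. Within the numbers, 11 members (16.9%) were higher in the KO library of each of the 3 numbers, against 10.9% of all genes, and 9 members (13.8%) were lower in each, against 11.6%. The 11 were *Slit2*, *Sema5a*, *Sema7a*, *Plxna2* (merged with *Gm37783*), *Plxnc1* (merged with *Gm48718*), *Ephb1*, *Ntn3* (merged with *Tbc1d24*), *Dcc*, *Neo1*, *Unc5c* and *Unc5d*, of which 4 are netrin receptors. The 9 were *Sema4c*, *Sema4f*, *Plxna1*, *Plxnb2*, *Plxnd1*, *Efna3*, *Robo2*, *Robo3* and *Ntn4*. These names, and others below that are outside the rule for named genes, were chosen after their values were seen.

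Among the ligands of the plexins, *Sema6d* was at 412, 342 and 493 CPM in the KO and at 383, 477 and 345 CPM in the WT libraries. The genotypes overlapped throughout, and the log2 fold change was 0.05 (SE 0.21), -0.09 without KO NPC 3 and -0.14 when libraries were scaled to *Rn7sk*. *Rn7sk* is a small nuclear RNA made by RNA polymerase III that the study used for scaling. It was at 11680, 15630 and 13920 CPM in the KO and at 12910, 16130 and 8069 CPM in the WT libraries, lowest in WT NPC 3. Scaling to *Rn7sk* moved the median of all genes from -0.01 to -0.26, so that *Sema6d* stayed above that median. The study tested transcripts, and it lists a transcript of *Sema6d* in its comparison of KO and WT NPCs. The counts used here are summed per gene, so they cannot show a change of a single transcript. *Sema6a* was at 335, 362 and 507 CPM in the KO and at 344, 301 and 274 CPM in the WT libraries. Its 2 highest values were both KO libraries, but KO NPC 1 lay below WT NPC 1. The log2 fold change was 0.39 (SE 0.21, unadjusted p = 0.111 by edgeR), and 0.19 without KO NPC 3.

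*Plxnb2* was at 433, 453 and 298 CPM in the KO and at 437, 478 and 393 CPM in the WT libraries. The libraries numbered 1 and 2 were close to each other, and KO NPC 3 was the lowest of the 6. The log2 fold change was -0.14 (SE 0.21), and 0.02 without KO NPC 3. *Plxnd1*, the receptor that *Sema3e* binds without a neuropilin, was at 40.4, 33.0 and 27.8 CPM in the KO and at 47.3, 39.1 and 56.7 CPM in the WT libraries. With a log2 fold change of -0.50 (SE 0.22, unadjusted p = 0.059 by edgeR) it had the lowest p of a member after *Slit2*, and the value was -0.38 without KO NPC 3.

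The log2 fold changes of the ephrins were balanced, with 4 members above and 4 below 0 and a median of -0.07. *Efnb1*, a transmembrane ligand of the EphB receptors, was at 35.2, 52.2 and 43.8 CPM in the KO and at 28.5, 55.8 and 40.7 CPM in the WT libraries, where the libraries of 1 number were nearer to each other than those of 1 genotype. Its log2 fold change was 0.07 (SE 0.29), and -0.17 by *Rn7sk* scaling, again above the median of all genes on that scale. *Efna2*, a membrane-anchored ligand of the EphA receptors, had a log2 fold change of 0.08 (SE 0.25), which was 0.20 without KO NPC 3 and -0.10 by *Rn7sk* scaling. Among the receptors, *Ephb3* was at 79.9, 73.8 and 85.1 CPM in the KO and at 78.9, 78.8 and 61.8 CPM in the WT libraries, with a log2 fold change of 0.12 (SE 0.16; -0.08 by *Rn7sk* scaling).

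*Ntn1* was at 179.8, 150.0 and 129 CPM in the KO and at 204, 122 and 154 CPM in the WT libraries. The genotypes overlapped, and the log2 fold change was -0.06 (SE 0.24), or 0.04 without KO NPC 3. *Robo2* was at 38.7, 47.5 and 55.8 CPM in the KO and at 42.1, 47.8 and 58.2 CPM in the WT libraries, with a log2 fold change of -0.06 (SE 0.21), and -0.20 without KO NPC 3. In each number the KO library of *Robo2* was a little below the WT library, by less than the numbers differed. *Slit1* was at 34.3, 19.99 and 14.4 CPM in the KO and at 20.2, 33.7 and 41.4 CPM in the WT libraries. Its order was opposite in the libraries numbered 1 and in the others, and the log2 fold change was -0.47 (SE 0.40). It was -0.23 without KO NPC 3 and -0.24 without WT NPC 3.

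**Figure D2:**
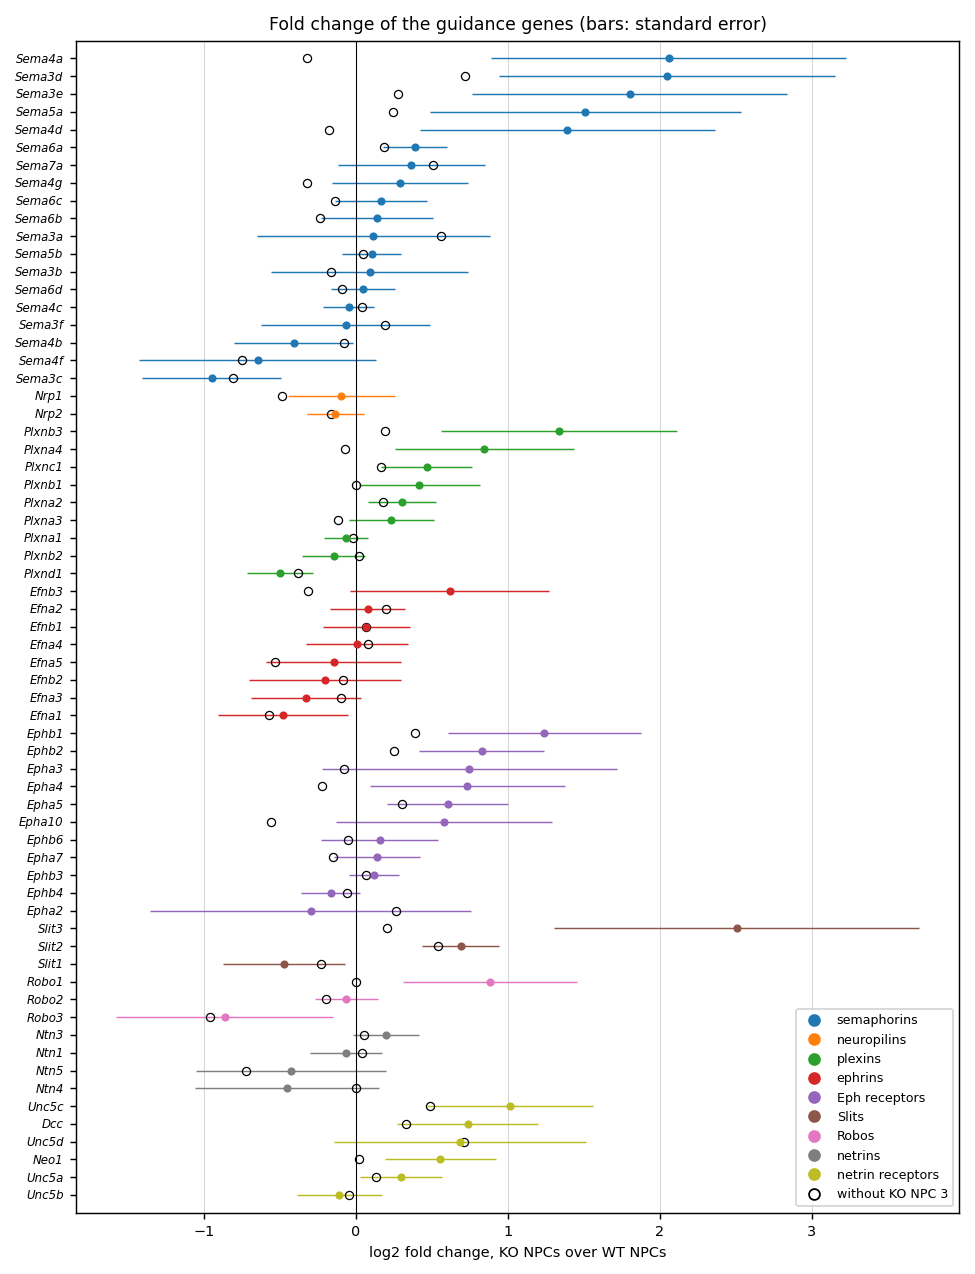
Log2 fold change, KO over WT NPCs, of the 65 tested guidance genes by family, as filled points with the standard error of edgeR's quasi-likelihood fit. Open circles give the value without KO NPC 3. The filled points of *Slit3* (2.51), *Sema4a* (2.06) and *Sema3d* (2.05) lie far to the right of their open circles (0.21, -0.32 and 0.72), while *Slit2* is at 0.69 and 0.54.

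The largest fold changes of the guidance genes came from 1 library. KO NPC 3 was the highest of the 6 libraries in 35 of the 65 members (53.8%), against 34.9% of all tested genes, and the lowest in 12 (18.5%), against 36.8%. The families differed: it was the highest in 9 of 11 Eph receptors, 6 of 9 plexins, 4 of 6 netrin receptors and 10 of 19 semaphorins, but in 1 of 8 ephrins and 1 of 4 netrins. The summed CPM of the Eph receptors was 792 in KO NPC 3 and between 292 and 456 in the other libraries, and that of the netrin receptors was 748 against 284 to 399. For the ephrins it was 159 in KO NPC 3 and between 108 and 172 in the others. The summed CPM of all members was 6189 in KO NPC 3 and between 3645 and 4388 in the other 5.

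*Slit3*, a Slit ligand found in many tissues, was at 0.904, 1.13 and 13.0 CPM in the KO and at 0.285, 1.35 and 0.993 CPM in the WT libraries. KO NPC 3 was at 9.60 times the next highest library, and the other 5 overlapped. The log2 fold change of 2.51 (SE 1.20, unadjusted p = 0.0796 by edgeR) was 0.21 without that library. *Sema4a*, a membrane-bound ligand (a locus merged with *Mir7011*), was at 1.60, 2.76 and 29.8 CPM in the KO and at 1.11, 3.51 and 3.56 CPM in the WT libraries. Its log2 fold change was 2.06 (SE 1.17), and it turned to -0.32 without KO NPC 3. *Sema3d*, a secreted class 3 ligand, was at 1.22, 10.03 and 31.1 CPM in the KO and at 1.395, 5.94 and 2.88 CPM in the WT libraries, with a log2 fold change of 2.05 (SE 1.10) and 0.72 without KO NPC 3.

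The receptors showed the same library at the top. *Robo1* was at 137, 102 and 422 CPM in the KO and at 166, 99.5 and 93.0 CPM in the WT libraries. *Neo1* was at 209, 219 and 504 CPM in the KO and, in the narrowest WT range of these genes, at 203, 214 and 216.5 CPM in the WT libraries. *Ephb1*, a receptor of the B ephrins, was at 31.9, 74.1 and 180 CPM in the KO and at 31.6, 58.9 and 30.5 CPM in the WT libraries. The log2 fold changes of the 3 genes were 0.88 (SE 0.57), 0.56 (SE 0.36) and 1.24 (SE 0.64), and 0.00, 0.02 and 0.39 without KO NPC 3.

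A ligand and its receptor were both highest in KO NPC 3 in the case of *Sema5a* and *Plxnb3*. *Plxnb3* was at 50.6, 111 and 375 CPM in the KO and at 50, 117 and 45.2 CPM in the WT libraries. *Sema5a*, a transmembrane ligand of plexin B3, was at 15.5, 79.7 and 248.5 CPM in the KO and at 11.3, 61.3 and 47.9 CPM in the WT libraries. The log2 fold changes were 1.34 (SE 0.78) and 1.51 (SE 1.03), and 0.19 and 0.24 without KO NPC 3. The pair *Sema4d* and *Plxnb1* was alike in this respect, with *Sema4d* at 46.6 CPM in KO NPC 3 and at most 10.9 CPM elsewhere, and *Plxnb1* at 466 CPM there and at 178 to 332 CPM elsewhere. In other pairs the directions were opposite. *Sema3e* was highest in KO NPC 3, at 4.92 CPM, and its receptor *Plxnd1* lowest, at 27.8 CPM. *Sema3a* was lowest there, at 18.7 CPM, and *Nrp1* highest, at 31.1 CPM. How many pairs went each way was not counted.

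Other members were lowest in KO NPC 3. *Epha2*, an Eph receptor of epithelia and early embryonic cells, was at 14.3, 8.70 and 0.39 CPM in the KO and at 14.4, 5.23 and 9.17 CPM in the WT libraries, which came from 23 counts in KO NPC 3 and from 374 or more in each other library. Its log2 fold change was -0.30 (SE 1.05), and 0.26 without KO NPC 3. *Ntn4*, a netrin of basement membranes, was at 77.8, 80.5 and 15.03 CPM in the KO and at 93.1, 89.2 and 54.6 CPM in the WT libraries, with a log2 fold change of -0.45 (SE 0.61) and 0.00 without KO NPC 3. *Sema4b* was at 49.2 CPM in KO NPC 3 and at 107 to 150 CPM in the other 5, and *Sema3a*, the class 3 repellent that signals through *Nrp1*, at 18.7 CPM there and at 27.6 to 132 CPM in the others.

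**Figure D3:**
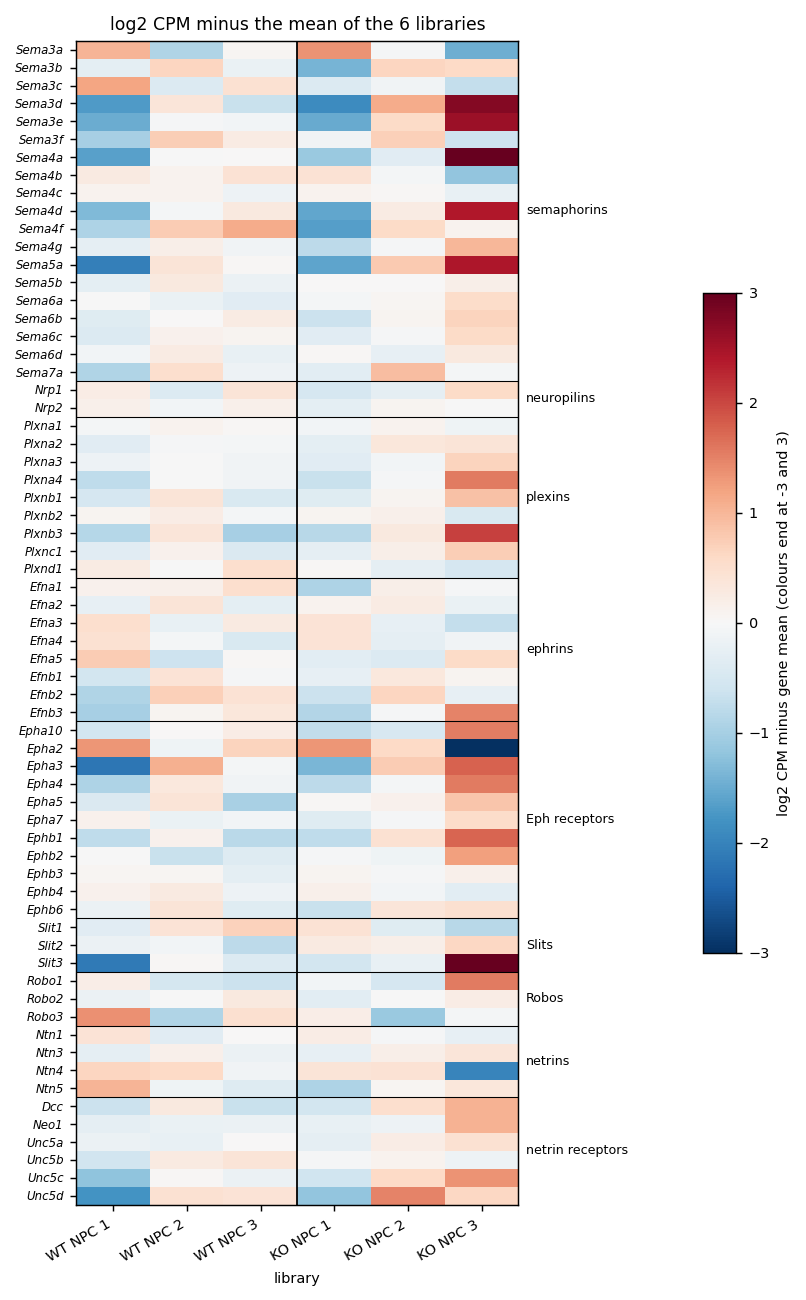
Log2 CPM (prior count 2) of the 65 tested guidance genes in the 6 libraries, minus the mean of the gene, with colours that end at -3 and 3 and families separated by lines. The column of KO NPC 3 is the most strongly coloured, red in 35 members where it is the highest and blue in *Epha2*, *Ntn4* and *Sema3a*, and the columns of WT NPC 1 and KO NPC 1 share their blue rows.

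Markers of other cell types moved with this library, and their part in the values above was not tested. The summed CPM of 7 astrocyte markers was 2721 in KO NPC 3, 1358 in WT NPC 3 and 840 to 1011 in the other 4, and 5 of the 7 were highest in KO NPC 3. Of 10 oligodendrocyte lineage markers the sum was 4240 in KO NPC 3 and 2626 to 3767 in the others. Among them *Olig1* was lower there (655 CPM) than in the other 5 (1176 to 1352 CPM), and *Mog*, a marker of mature cells, was at 1.17 CPM or less in each library and at 0 in both libraries numbered 1. The sum of 8 endothelial and mural markers was 77.7 in KO NPC 3 and 14.0 to 18.8 in the others. It was carried by *Pdgfrb*, a receptor of mural cells, at 58.5 CPM, and *Kdr*, at 14.8 CPM, while *Acta2* was lowest in KO NPC 3 (0.475 CPM, against 8.62 to 12.5 CPM). The endothelial genes *Cdh5*, *Cldn5* and *Pecam1* were at most at 0.131, 0.102 and 0.599 CPM in any library. The 10 neuron markers summed to 1545 in KO NPC 3, 1509 in WT NPC 1 and 852 to 1204 in the others. Of the sum in WT NPC 1, *Map2* made up 1430 CPM, with *Dcx* at 17.3, *Tubb3* at 7.81 and *Stmn2* at 0.111 CPM there. The 14 progenitor markers summed to 2804 in KO NPC 3 and 3515 to 4000 in the others. KO NPC 3 was the highest library in 5 of them and the lowest in 5. The 6 fibroblast and meninges markers summed to 2.78 to 11.8 over the 6 libraries. The 6 microglia markers summed to at most 0.865, so that microglia were near 0. In bulk RNA, a different number of cells of a type and a different amount of RNA per cell cannot be told apart.

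Without KO NPC 3, none of 66 members tested had an unadjusted p under 0.05, against 2.77% of all genes. Leaving out KO NPC 1 moved the count the other way. Without it, 12 of 66 members (18.2%) were at an unadjusted p under 0.05 in edgeR's quasi-likelihood fit, against 4.78% of all genes, and none an adjusted one. They were *Sema3d*, *Sema3e*, *Sema4a*, *Sema4d*, *Sema5a*, *Plxna2*, *Plxnb3*, *Plxnd1*, *Ephb1*, *Slit3*, *Dcc* and *Unc5c*. All but *Plxnd1* had a log2 fold change above 0 with the KO libraries left, KO NPC 2 and KO NPC 3. For *Sema3d* it was then 2.60, and for *Dcc* 1.06. In *Sema4a*, *Sema4d*, *Plxnb3* and *Slit3*, KO NPC 2 was not above each WT library, and KO NPC 3 alone was.

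In many guidance genes the libraries numbered 1 stood apart from the others in both genotypes. In 26 of the 65 members (40%) both libraries numbered 1 were below the other 4, against 11.4% of all tested genes, and in 6 (9.23%) both were above, against 9.81%. Semaphorins made up 11 of the 26. With the replicate number as the tested term beside genotype, 9 members (13.8%) were at an unadjusted p under 0.05 in edgeR's quasi-likelihood fit, against 6.53% of all genes. None had an adjusted p under 0.05 by that test, as had 0% of all genes. By edgeR's likelihood ratio test it called 5 members (7.69%), against 3.69% of all genes: *Sema5a*, *Sema4d*, *Efnb3*, *Epha3* and *Unc5d*.

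*Epha3*, a receptor of the A ephrins, was at 5.00 and 2.90 CPM in KO and WT NPC 1, at 22.1 and 27.2 CPM in KO and WT NPC 2, and at 44.7 and 12.6 CPM in KO and WT NPC 3. Both libraries numbered 2 were above both numbered 1, and the adjusted p of the number was 0.00274 by edgeR's likelihood ratio test. *Sema5a*, with the values above, was at 11.3 to 15.5 CPM in the libraries numbered 1 and at 47.9 CPM or more in the other 4 (adjusted p = 0.00196 by the same edgeR test). *Unc5d*, a receptor for repulsion by netrin, was at 1.15 and 0.745 CPM in KO and WT NPC 1 and at 3.55 to 7.56 CPM in the other 4 (adjusted p = 0.00296 by edgeR). *Efnb3*, a midline ligand of the Eph receptors, was at 8.72 and 8.003 CPM in the libraries numbered 1 and at 15.5 to 45.0 CPM in the others (adjusted p = 0.0309 by edgeR).

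*Sema3a* ran the other way, at 132 and 104 CPM in KO and WT NPC 1 and at 18.7 to 53.7 CPM in the other 4, though its adjusted p for the number was 0.179 by edgeR's likelihood ratio test. Some marker genes moved with the same libraries: *Sox10*, a transcription factor of the oligodendrocyte lineage, was at 27.3 and 25.9 CPM in KO and WT NPC 1 and at 46.9 to 239.9 CPM in the other 4, and *Dcx*, a protein of young neurons, at 21.3 and 17.3 CPM against 44.5 to 287 CPM. Both libraries numbered 1 were below the other 4 in 11.4% of all tested genes. Of the neuron markers, *Map2*, *Rbfox3*, *Snap25*, *Elavl3* and *Syt1* did not have this order. Nor did *Olig1*, *Olig2* and *Cspg4* of the oligodendrocyte lineage markers. The part of the markers in the levels of the guidance genes was not tested. The sources used here do not say what the number stands for (a litter, a day or a batch).

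*Unc5c*, a netrin receptor of the UNC5 family, was at 9.67, 22.2 and 36.9 CPM in the KO and at 6.26, 14.9 and 12.8 CPM in the WT libraries. In each number the KO library was above the WT library, while the genotypes overlapped across numbers. Its log2 fold change was 1.02 (SE 0.55, unadjusted p = 0.11 by edgeR), and 0.49 without KO NPC 3 (unadjusted p = 0.364 by edgeR). With the replicate number as a block it was 0.91, and *Unc5c* was the single member below an unadjusted 0.05, at 0.0272 by edgeR's quasi-likelihood test, against 2.05% of all genes. *Dcc*, at 58.0, 121 and 176 CPM in the KO and 54.4, 105 and 53.7 CPM in the WT libraries, was likewise higher in the KO library of each number, by little in the numbers 1 and 2. Its log2 fold change was 0.74 (SE 0.46), and 0.33 without KO NPC 3.

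**Figure D4:**
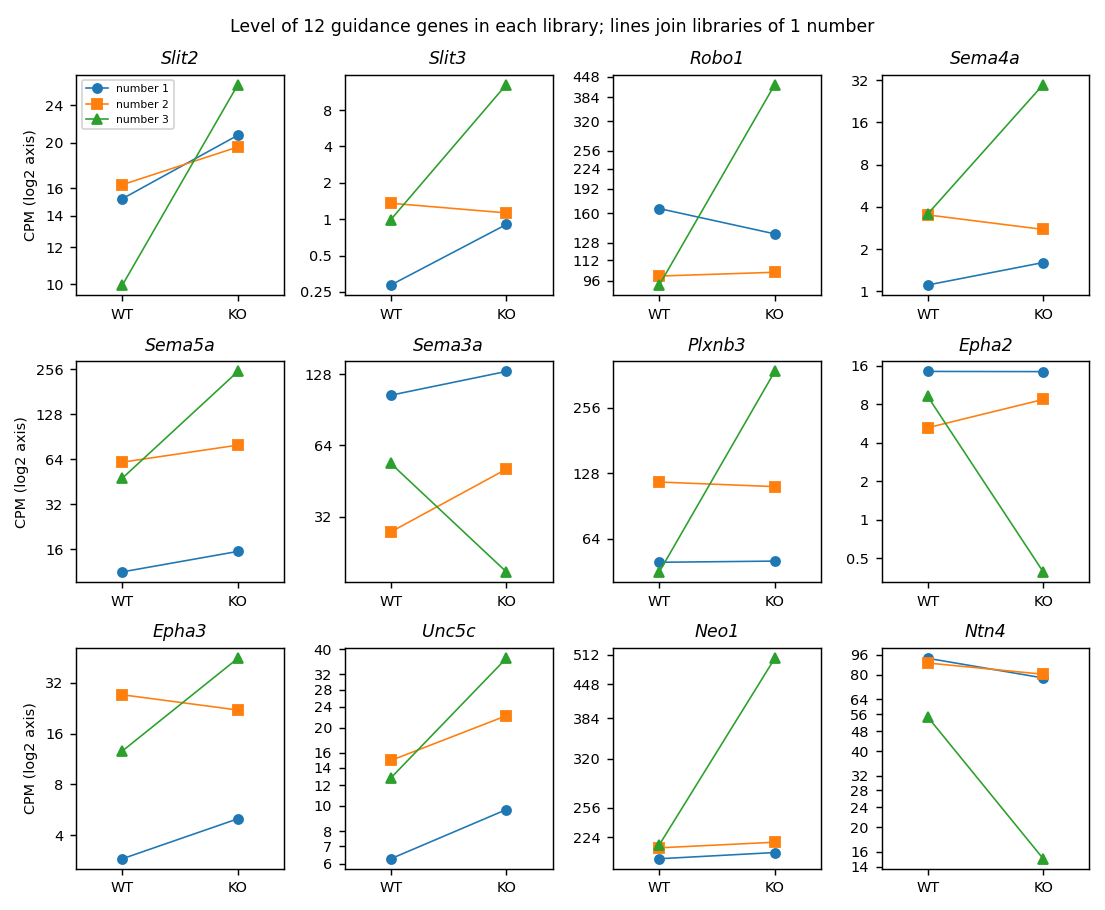
CPM of 12 guidance genes on log2 axes, with WT on the left and KO on the right of each panel and a line between the 2 libraries of each replicate number (circles 1, squares 2, triangles 3). In *Slit2* all 3 lines go up, in *Slit3*, *Robo1*, *Sema4a*, *Plxnb3* and *Neo1* the line of number 3 is far steeper than the others, and in *Epha3*, *Sema5a* and *Unc5c* the circles lie lowest in both genotypes.

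The genes that carry guidance signals inside the cell were not called between the genotypes either. In 4 lists of partners, 0 of 32 semaphorin and plexin partners, 0 of 27 Eph and ephrin partners, 0 of 20 Slit and Robo partners and 0 of 23 netrin receptor partners tested had an adjusted p under 0.05. Their median log2 fold changes were -0.02, -0.04, -0.01 and 0.03, near the -0.01 of all genes, and the median of the guidance genes was 0.14. At an unadjusted p under 0.05 there was 1 of all these genes, *Abl2*, while 1.61% of all genes tested had such a p. *Abl2*, a tyrosine kinase that acts on the actin cytoskeleton, was at 51.0, 67.5 and 106 CPM in the KO and at 120.2, 130 and 111 CPM in the WT libraries. Its KO libraries were all below its WT libraries, a pattern of 3.28% of all tested genes. *Abl2* had a log2 fold change of -0.69 (SE 0.28, unadjusted p = 0.049, adjusted p = 0.983 by edgeR) and -1.02 without KO NPC 3. With the replicate block its unadjusted p was 0.0535 by edgeR's quasi-likelihood test.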

How the data were processed

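The members and gene lists were chosen with earlier results of these data known. Per the labels and the study's methods, rRNA-depleted total RNA was sequenced from strand-marking libraries, and the submitters' processing notes name Trimmomatic, STAR, Picard, StringTie and edgeR with GRCm38. The values used are the raw counts per locus and library that the authors deposited, made on StringTie loci merged with known genes. The counting step, its use of strand and tool versions are not given in the sources used here, so reads of overlapping or antisense genes may be shared, and merged loci hold the reads of each gene in them. The authors also deposited log2 CPM values, values scaled to *Rn7sk* and their group means, which were not used for tests.

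Counts were summed per gene, and loci that name no gene (1.31% to 4.89% of a library's counts) were left out. Genes passed edgeR's filterByExpr (minimum count 10, minimum total 15), were TMM-scaled and tested KO against WT by edgeR's quasi-likelihood test, with Benjamini-Hochberg adjustment over 19073 genes and a threshold of 0.05. CPM per kb used the exonic length of the locus in the table. At 52995791 to 85170379 counts per library, counting error is small for all but the lowest members, and 3 libraries per genotype limit precision. The study describes 3 pairs of biological replicates and a paired comparison, without saying which libraries form a pair or share a litter. The replicate numbers were taken to pair the libraries, since libraries of 1 number correlated in their deviations from the group means (r = 0.413, 0.169 and 0.195, over 6 libraries and all genes tested) and other pairs had at most 0.0579. The main fit left the pairing out, and the replicate block used it. A two-sided exact permutation test was used for *Slit2*.

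*Sema6d* was named since the study lists a transcript of it. Also named were members at an unadjusted p under 0.05, members called in any alternative (none), the 2 highest per family per exon length over all 6 libraries (neuropilins and plexins as 1 family), the 4 widest in log2 CPM, and members without overlap of the genotypes past a log2 fold change of 1 (none). Alternatives were *Rn7sk* or total-count scaling, no filter, a floor of 1 CPM in 3 or more libraries, edgeR's likelihood ratio test, DESeq2, the replicate block, and leaving out libraries. The test of the replicate number, the block without KO NPC 3, and the counts within numbers, by KO NPC 3 and by the libraries numbered 1 were added after seeing the data. The fits were tested on simulated counts. R 4.3.3, edgeR 4.0.16, limma 3.58.1, DESeq2 1.42.0, Python 3.11.15 and pandas 2.3.3 were used.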

Additional observations from a re-analysis of the deposited data

How the results depend on the processing

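None of the guidance genes passed an adjusted p under 0.05 in any of the 18 alternatives, and none of the partner genes in any of the 11 run for them. The number at an unadjusted p under 0.05, 1 as reported, was 2 by *Rn7sk* scaling (1.88% of all genes), by the likelihood ratio test (2.88%), by DESeq2 (3.03%), by the replicate block in the likelihood ratio test (3.13%) and by *Rn7sk* scaling with the likelihood ratio test (2.41%), 6 with no filter (2.2%), 5 with the replicate block without KO NPC 3 (5.65%), and 0 without both libraries numbered 3 (2.8%) or without KO NPC 3 by the likelihood ratio test (3.04%). By *Rn7sk* scaling the 2 were *Sema3d* and *Slit3*, with *Slit2* at an unadjusted p of 0.246, and without KO NPC 1 *Slit2* was at 0.0577, both by edgeR. Leaving out 1 library gave 0 (KO NPC 3, WT NPC 1 or WT NPC 3) to 12 (KO NPC 1). With the replicate block it was 1, *Unc5c* in place of *Slit2*, and *Abl2* was lost among the partners, at 0.0535 by edgeR. At an adjusted p the block changed no call. The count of members without overlap of the genotypes was 1 under each scaling and filter tried. The cause of these changes was not tested.

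The median log2 fold change of the members, 0.14, was 0.11 with the replicate block and -0.08 by *Rn7sk* scaling, where that of all genes was -0.26, and -0.01 to 0.36 when 1 library was left out. Of 360 values of the 20 named genes under alternatives, 314 kept their direction and 46 reversed, and none of these was called. By *Rn7sk* scaling, with either test, *Efna2* was at -0.103, *Efnb1* at -0.173, *Ephb3* at -0.0788 and *Sema6d* at -0.141, and by total counts *Robo2* was at 0.0091. Without both libraries numbered 3, *Epha2* was at 0.225, *Ephb3* at -0.0443, *Ntn1* at 0.0103, *Plxnb1* at -0.144, *Robo1* at -0.156, *Sema4a* at -0.0901, *Sema6d* at -0.195 and *Slit1* at 0.00483. With the replicate block without KO NPC 3, *Epha2* was at 0.353, *Ephb3* at -0.0456, *Ntn1* at 0.051, *Plxnb1* at -0.0916, *Robo1* at -0.125 and *Sema6d* at -0.193. By the likelihood ratio test without KO NPC 3, *Epha2* was at 0.263, *Ntn1* at 0.0427, *Ntn4* at 0.00124, *Plxnb1* at -0.000207, *Plxnb2* at 0.0207, *Sema4a* at -0.321 and *Sema6d* at -0.092. Leaving out 1 library gave ranges of -0.039 to 0.358 for *Efna2*, -0.135 to 0.366 for *Efnb1*, -1.08 to 0.263 for *Epha2*, -0.198 to 0.158 for *Ntn1*, -0.729 to 0.00125 for *Ntn4*, -0.000232 to 0.795 for *Plxnb1*, -0.223 to 0.0207 for *Plxnb2*, -0.196 to 0.069 for *Robo2*, -0.321 to 2.58 for *Sema4a* and -0.092 to 0.22 for *Sema6d*.

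Among the marker lists, leaving out 1 library gave medians of -0.612 to 1.11 for the neuron, -0.123 to 1.32 for the astrocyte, 0.0482 to 1.41 for the oligodendrocyte lineage (0.911 as reported) and -0.435 to 0.754 for the endothelial and mural markers, and without both libraries numbered 3 the neuron and endothelial medians were 0.172 and -0.0983. The microglia markers gave no median, since none of the 6 passed the filter. Depth limits *Robo3*, *Ntn5*, *Sema3b*, *Sema3e*, *Sema4f*, *Efna1* and *Epha10*, at about 1 CPM or less in most libraries. It also limits *Slit3*, at 0.285 to 1.355 CPM outside KO NPC 3.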
